A study of Mus musculus with 18 samples.

Results

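The MS2 control eluates are the background sample of a miRNA trapping experiment in C2C12 cells, and they are compared here between differentiated and undifferentiated cells. C2C12 is an established mouse myoblast line that fuses into myotubes when serum is lowered. The members are the 6 libraries, of 18 in the series, whose titles name the MS2 control, with 3 from differentiated and 3 from undifferentiated cells, and the table lists 2042 miRNA names for each. In this assay, called miTRAP (miRNA trapping through affinity-purified RNA), a bait tagged with MS2 hairpins is incubated with cell lysate, and the small RNA that stays with it is eluted and sequenced. The other 12 libraries are input RNA of the lysate and eluates of the MRTF-A bait, 3 of each in both states. The labels do not describe the control RNA beyond its name, and they name no allele or agent other than serum. Per the labels, cells were grown with 10% FCS, and differentiation ran for 7 days with 2% HS. The labels repeat that differentiation medium for the undifferentiated samples too, so each state here follows the titles and the differentiation tag. All groups come from this 1 cell line. No label states whether the 3 libraries in a group derive from separate cultures, and p-values therefore describe the spread among these libraries only, which could be technical. The letters A, B and C stand for the suffixes of the table's columns within each group.

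An affinity control of this kind retains whatever binds the resin, the tag or the hairpins, and also abundant RNA that is carried over. Muscle differentiation is known for a set of striated muscle miRNAs, the myomiRs, which include miR-1, miR-133 and miR-206 and are induced by myogenic transcription factors. Withdrawal from the cell cycle is known to lower miRNAs of the miR-17~92 cluster, and let-7 miRNAs repress genes of growth and proliferation.

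The sequences below belong to names on which the results turn, and were taken from RefSeq on build GRCm38.p6, which held 50 of the 66 names tested and 13 of the 22 that differed. Capitals mark the seed, bases 2 to 8 from the 5′ end. The first 3 are names that took many reads of the control in one or both states, the next 6 rose with differentiation, and the last 6 fell.
miR-6244: gGGGGCGUggaauuaucgggu
miR-615-3p: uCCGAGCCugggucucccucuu
miR-6241: cACGGCGGcuggaauuccc
miR-6240: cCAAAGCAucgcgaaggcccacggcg
miR-690: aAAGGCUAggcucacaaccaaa
miR-199a-5p: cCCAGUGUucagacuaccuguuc
miR-199a-3p: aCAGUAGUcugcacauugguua
miR-378d: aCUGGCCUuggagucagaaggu
miR-26a-5p: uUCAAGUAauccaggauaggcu
miR-92a-3p: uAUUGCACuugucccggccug
let-7d-5p: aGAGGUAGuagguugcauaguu
let-7e-5p: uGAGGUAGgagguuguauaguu
let-7i-5p: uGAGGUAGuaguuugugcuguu
miR-3473b: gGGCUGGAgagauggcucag
miR-7667-5p: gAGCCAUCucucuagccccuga
RefSeq places miR-690 at chr16:28599940-28599961 on the minus strand (gene Mir690), miR-6240 at chr5:114851973-114851998 on the plus strand (Mir6240), miR-6244 at chr9:52115653-52115673 on the plus strand (Mir6244) and miR-615-3p at chr15:103014969-103014990 on the plus strand (Mir615). miR-199a-5p has a copy at chr1:162217844-162217866 on the plus strand (Mir199a-2) and another at chr9:21496537-21496559 on the minus strand (Mir199a-1). miR-92a-3p is listed at chr14:115044476-115044496 on the plus strand (Mir92-1) and at chrX:52741854-52741874 on the minus strand (Mir92-2).

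These were the shallowest libraries of the series, with 22586, 23433 and 15562 reads in differentiated A, B and C and 20525, 39695 and 24371 in undifferentiated A, B and C. Inputs held 294112 to 860828 reads and MRTF-A eluates 107165 to 544504. Values are CPM as the authors normalised them, reads scaled by an effective library size, and 1 read was worth 11.9 to 34.3 CPM in an MS2 library. Of the 2042 names, 717 had a read in some MS2 library, 109 had one in all 6, and 66 passed the filter on low values. The 66 held 95.2 to 97.7% of the reads. Of these, 5 had fewer than 10 reads in every library of one state, so they had passed the filter through the state in which they were high. Called were 4 of the 5, miR-1a-3p, miR-133a-3p, miR-149-5p and let-7i-5p, while miR-99b-3p was not. The filter's minimum of 10 reads was applied as a CPM at the median effective library size. By that limit miR-199a-5p and miR-378d, both called, also passed only through the differentiated libraries. Their undifferentiated libraries were at 131 to 197 CPM and 107 to 295 CPM. The p-values of all these names carry that selection. Every pair of replicates differed beyond read sampling (chi-square over degrees of freedom 3.90 or more), so none was counted as a repeat of another.

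The control libraries also stood apart in a way the states do not explain. Human-named entries, which the table lists beside mouse names, took 0.930% of the reads in differentiated A, 0.755% in differentiated B and 0.765% in undifferentiated A. They took 0.0900% in differentiated C, 0.111% in undifferentiated B and 0.115% in undifferentiated C. Each state thus holds libraries of both kinds, in unequal numbers. A single entry, hsa-miR-6509-3p, held 55.1% of these reads, with 111, 104 and 11 reads in differentiated and 81, 28 and 12 in undifferentiated A, B and C. The larger changes are therefore also given within the kinds, first as differentiated A and B against undifferentiated A and then as differentiated C against undifferentiated B and C.

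**Figure D1:**
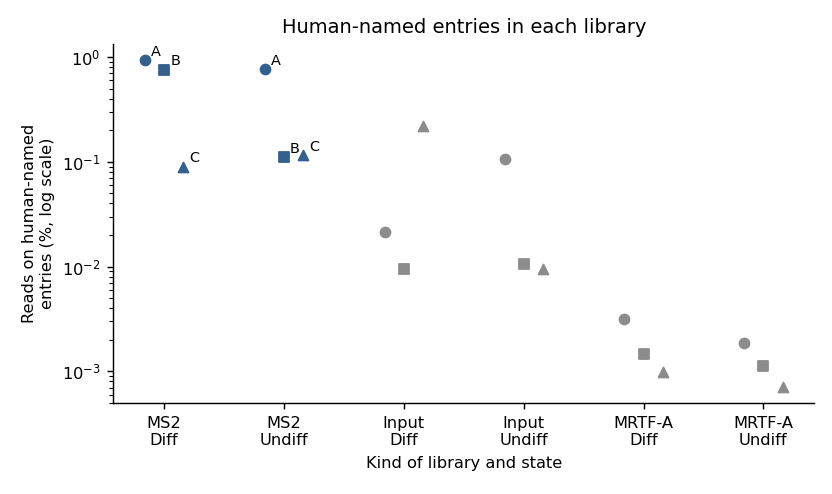
Share of reads on human-named entries in each of the 18 libraries, on a log axis in percent, by kind of library and state, with circles, squares and triangles for libraries A, B and C. Differentiated MS2 libraries A and B and undifferentiated MS2 library A lie between 0.755 and 0.930%, and the other 3 MS2 libraries between 0.0900 and 0.115%.

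Most of the reads in the control went to a handful of names, and these did not move together with the state. miR-6244 took 45.5, 43.2 and 33.5% of the reads in differentiated A, B and C and 55.2, 10.46 and 20.0% in undifferentiated A, B and C. The states overlapped, because undifferentiated A was the highest of the 6. The limma log2 fold change of its CPM was 1.04 ± 0.95 (SE, adjusted p = 0.402). miR-615-3p, from an intron in the Hoxc cluster, took 30.1, 28.9 and 14.1% in differentiated and 22.9, 30.5 and 31.9% in undifferentiated cells (log2 fold change -0.08 ± 0.85, adjusted p = 0.957). Here differentiated C was the lowest and the states overlapped again. miR-6241 took 4.23, 6.73 and 5.84% against 3.78, 1.86 and 3.86% (1.08 ± 0.56, adjusted p = 0.145).

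The 5 leading names, with miR-5099 and miR-6240, together took 77.7 ± 10.2% (SD, n = 3) of the differentiated and 81.9 ± 2.72% of the undifferentiated control. Names numbered 5000 or above, registered late in the miRNA catalogue, took 54.5 to 55.5% of the differentiated and 49.1 to 63.0% of the undifferentiated control, against 5.23 to 22.7% of the inputs and 3.68 to 10.3% of the MRTF-A eluates. Names numbered below 500, with let-7, took 11.8 to 27.5% and 12.5 to 17.2% of the control. The differentiated libraries were thus close to each other in the late names, and differentiated C stood above all others in the early ones. Sequences show one relation among the leading names: the last 7 bases of miR-6240 are the first 7 of miR-6241.

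**Figure D2:**
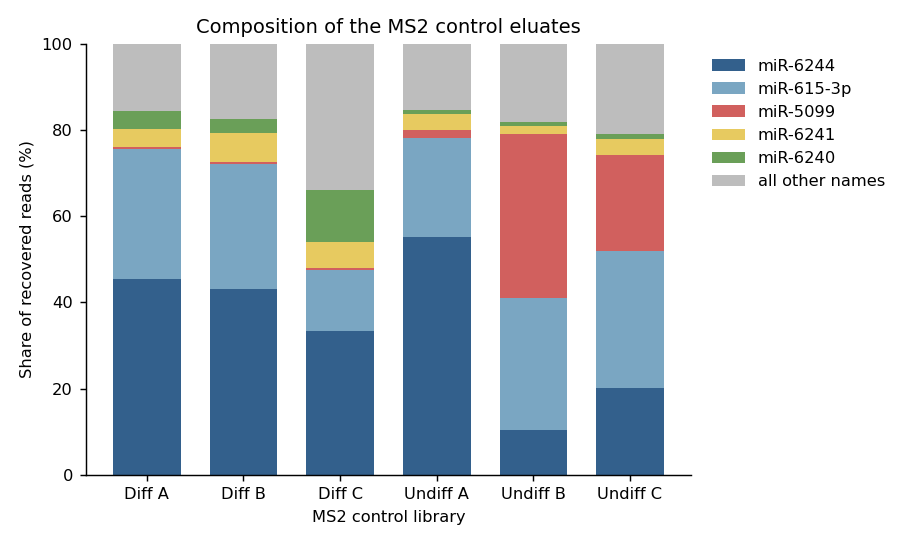
Stacked shares of the recovered reads, in percent, for the 5 leading names and all other names in the 6 MS2 control libraries. miR-5099 (red) holds 38.3% of undifferentiated B and 22.2% of undifferentiated C but 1.89% of undifferentiated A and 0.425 to 0.501% of the differentiated libraries.

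Differentiation changed 22 of the 66 names tested in the control, 33.3%. Of these, 14 were higher in differentiated cells (21.2% of those tested) and 8 were lower (12.1%). limma on log2(CPM + 10) was used, with Benjamini-Hochberg adjustment over the 66 names and a threshold of 0.05, and the median log2 fold change over all 66 was 0.39. The + 10 is a pseudocount that understates the change of low names. In 21 of the 22 the 3 libraries of one state did not overlap those of the other, as they did not in 29 of all 66 (43.9%). All 22 had the same sign within both kinds of library, but for the 21 without overlap any subset of libraries gives that sign. The shared sign is therefore no separate support. With the kind as a term in the fit, 20 of the 22 passed again. The sign of all 22 was also the same under each other scaling and test run, on the 6 libraries that they were picked on. The median of the 66 names was 0.19 with library totals, 0.12 with RLE factors, 0.06 with TMM factors of the 6 libraries and 0.14 with DESeq2. Of the 22, 11 passed in the same direction with those scalings and with edgeR and DESeq2, 8 higher and 3 lower, and the same 11 passed in each of the 6 fits that left out 1 MS2 library. The count of 22 itself rested on single libraries, being 11 without undifferentiated B and 14 without undifferentiated C.

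The myomiRs that could be tested were higher in differentiated cells. Of 13 names on the list 11 were in the table, 7 had a read in the control and 4 were tested, and these 4 passed under each scaling and test run. They are miR-1a-3p and miR-133a-3p, which passed the filter only through the differentiated libraries, and miR-486-5p and miR-3107-5p, which are names of 1 molecule. The summed level of the list was 17931 to 27459 CPM in differentiated and 961 to 1516 CPM in undifferentiated libraries. miR-1b-3p, miR-133c, miR-208a-3p and miR-499-5p had no read in any MS2 library. The tested muscle markers were higher in every differentiated library than in any undifferentiated one. For miR-1a-3p and miR-133a-3p the filter had fixed that direction. Only the 1 molecule named miR-486-5p and miR-3107-5p was free to go either way. As these are bulk libraries, more cells of a type and more of a miRNA per cell cannot be told apart.

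miR-1a-3p, which is transcribed together with miR-133a in striated muscle and represses genes of undifferentiated growth, had 148, 202 and 201 reads in differentiated A, B and C and 2, 0 and 0 in undifferentiated A, B and C. Its levels were 4915, 6935 and 5443 CPM against 65.6, 0 and 0 CPM, so the states lay far apart. From pooled reads the ratio of the states was 463 (95% exact counting interval 128 to 3831), and intervals of this kind cover counting error only. Without undifferentiated A, which holds both reads of that state, it was at least 116-fold higher, with 3 reads per library as the limit that a count of 0 allows. The fitted log2 fold change was 8.19 ± 0.71 (SE, limma adjusted p = 2.73e-07), and 9.16 without undifferentiated A. Within the kinds of library it was 6.27 and 9.09. In the undifferentiated inputs the name had 0 of 1506700 reads.

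miR-133a-3p, which acts on serum response factor and other muscle genes, had 36, 57 and 105 reads in differentiated and 0, 2 and 3 in undifferentiated A, B and C. This is 1195, 1957 and 2843 CPM against 0, 23.7 and 64.0 CPM (log2 fold change 6.02 ± 0.84, adjusted p = 2.39e-05). The value was 5.24 without undifferentiated A and 6.69 without undifferentiated C, and 7.27 and 5.84 within the kinds of library. Differentiated C was the highest library and the states did not overlap.

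miR-486-5p, encoded in an intron of the ankyrin gene Ank1 and enriched in muscle, was at 5280, 7072 and 9045 CPM in differentiated and 656, 380 and 640 CPM in undifferentiated libraries (3.66 ± 0.38, adjusted p = 1.19e-06). miR-3107-5p was at 5944, 7759 and 9153 CPM against 591, 546 and 790 CPM (3.54 ± 0.36, adjusted p = 1.19e-06). Within the kinds of library the first was at 3.20 and 4.17 and the other at 3.50 and 3.78. The 2 names are known for 1 mature molecule encoded on opposite strands of that intron, so reads split between them are uncertain and the pair counts as 1 observation.

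Other myomiRs were too low to be tested. miR-206-3p, the skeletal muscle relative of miR-1, had 9, 8 and 9 reads against 0, 0 and 1, a pooled ratio of 43.7 (95% exact counting interval 7.18 to 1791). miR-133b-3p, encoded next to it, had 9, 8 and 25 reads against 0, 1 and 0, a ratio of 70.6 (11.99 to 2852). miR-208b-3p, encoded in a myosin heavy chain gene, had 2 reads in differentiated C alone. Each of the low myomiRs with reads was thus counted mainly or only in differentiated libraries.

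The largest rise outside the muscle markers was that of miR-690, whose sequence is given above. It was at 2623, 2918 and 1706 CPM in differentiated A, B and C and at 328, 202 and 171 CPM in undifferentiated A, B and C. The means were 2416 ± 632 and 234 ± 83.4 CPM (SD, n = 3), and the lowest differentiated library was above every undifferentiated one. The log2 fold change was 3.33 ± 0.41 (adjusted p = 6.62e-06), with 3.04 and 3.13 within the 2 kinds of library. Its 22 bases also occur in full in 3 annotated transcripts of 3 genes other than miRNAs (GENCODE vM21), those of Gm42826, BC018473 and Fundc2, and reads from these and from Mir690 cannot be told apart.

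miR-6240 rose from 5546, 3692 and 6062 CPM in undifferentiated A, B and C to 30683, 27019 and 50937 CPM in the differentiated libraries. This is 0.823, 0.783 and 1.17% of the reads against 4.09, 3.36 and 12.1%, with differentiated C the highest. The log2 fold change was 2.80 ± 0.46 (adjusted p = 1.53e-04), with 2.37 and 3.43 within the kinds of library. It was the only late-registered name of the 12 tested that passed as higher, while 2 passed as lower, and the median of the 12 was 0.70. Over all 66 tested names 21.2% passed as higher and 12.1% as lower, with a median of 0.39. At 26 bases miR-6240 was the longest of the 50 tested names with a sequence. These ranged from 19 to 26 bases with a median of 22.

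Of 9 tested names on a list of other miRNAs of muscle differentiation, 4 were higher and none was lower, with a median of 0.96. Over all 66 tested names 14 (21.2%) were higher and 8 (12.1%) lower, with a median of 0.39. With library totals and with RLE or TMM factors 2 of the 9 were higher and none lower, and with DESeq2 2 were higher and 1 lower. miR-378a-3p, encoded in the gene of the metabolic coactivator PGC-1β and raised in muscle differentiation, was at 4151, 4291 and 8286 CPM in differentiated and 1149, 712 and 1238 CPM in undifferentiated libraries (2.38 ± 0.40, adjusted p = 1.53e-04). miR-199a-5p was at 830, 755 and 921 CPM against 197, 131 and 149 CPM (2.34 ± 0.48, adjusted p = 0.00125). Neither miR-378a-3p nor miR-199a-5p had overlapping states, and both passed with all scalings and tests. However, miR-199a-5p had passed the filter only through the differentiated libraries, so its direction and p-value carry that selection. Within the kinds of library miR-378a-3p was at 1.87 and 3.13 and miR-199a-5p at 1.95 and 2.64. The sequences of miR-199a-5p and miR-199a-3p lie in annotated transcripts of Dnm3os, an antisense gene.

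The other 2 members of that list that passed, miR-26a-5p and miR-30d-5p, rose less, and both missed the threshold with library totals, RLE or TMM factors and DESeq2. miR-26a-5p, which lowers the Polycomb protein EZH2 during myogenesis, was at 1328, 1408 and 1950 CPM against 459, 700 and 961 CPM (1.17 ± 0.39, adjusted p = 0.0344). It missed the threshold without differentiated B, differentiated C, undifferentiated A or undifferentiated B (adjusted p = 0.0794 to 0.111). miR-30d-5p was at 697, 961 and 1246 CPM against 263, 534 and 448 CPM (1.22 ± 0.42, adjusted p = 0.0399), and it missed the threshold without each library but differentiated A (adjusted p = 0.0557 to 0.123). The remaining 5, miR-24-3p, miR-27b-3p, miR-222-3p, miR-30a-5p and miR-31-5p, did not pass, and their log2 fold changes ranged from -0.57 for miR-31-5p to 0.96 for miR-27b-3p. Of these miR-27b-3p, at 2657, 3536 and 5660 CPM against 1805, 1840 and 2156 CPM, was nearest to the threshold (0.96 ± 0.38, adjusted p = 0.0623).

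Further rises were smaller or less certain. The first, miR-378d, had passed the filter only through the differentiated libraries. miR-378d was at 531, 790 and 758 CPM against 295, 131 and 107 CPM (2.02 ± 0.55, adjusted p = 0.0123), and missed the threshold without differentiated C (adjusted p = 0.0537) or undifferentiated B (adjusted p = 0.0586) and with library totals (adjusted p = 0.0601). miR-149-5p, encoded in an intron of the glypican gene Gpc1, had 14, 11 and 16 reads against 3, 5 and 4 (2.28 ± 0.84, adjusted p = 0.0469). It had passed the filter only through the differentiated libraries. It missed the threshold without differentiated A or C or undifferentiated B or C (adjusted p = 0.0587 to 0.110), and with library totals, RLE or TMM factors (adjusted p = 0.124, 0.0569 and 0.056). miR-143-3p, a miRNA of smooth muscle and connective tissue cells, was at 3188, 3879 and 4333 CPM against 2232, 1519 and 2006 CPM (0.99 ± 0.36, adjusted p = 0.0469), and missed it without differentiated B or C or undifferentiated B or C (adjusted p = 0.0931 to 0.133). It also missed it with library totals, RLE or TMM factors (adjusted p = 0.323, 0.0835 and 0.113), and was 0.23 with library totals without the 3 leading names.

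1 molecule fell on both sides of the threshold under its 2 names. miR-199a-3p and miR-199b-3p have the same 22-base sequence. The first name was at 7372, 7931 and 9261 CPM against 5546, 1792 and 4248 CPM (1.22 ± 0.45, adjusted p = 0.0469), and the other at 6110, 7450 and 8205 CPM against 4857, 1697 and 4461 CPM (1.11 ± 0.44, adjusted p = 0.0623). Neither overlapped between states, and undifferentiated B was the lowest in both. miR-199a-3p missed the threshold without differentiated B or C or undifferentiated B or C (adjusted p = 0.0682 to 0.138), with library totals, with RLE or TMM factors, with edgeR and with the kind of library as a term. Its values within the kinds of library were 0.46 and 1.74.

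**Figure D3:**
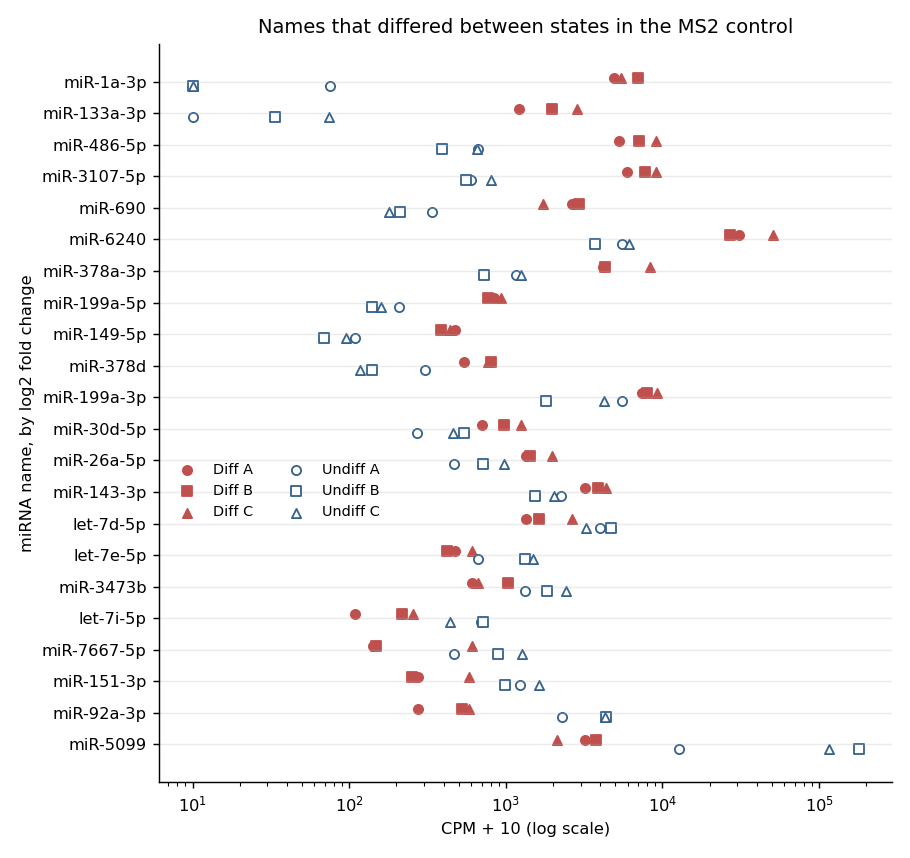
CPM + 10 on a log axis for the 22 names that differed, ordered by log2 fold change, with filled red symbols for differentiated and open blue symbols for undifferentiated libraries (circles, squares and triangles for A, B and C). The symbols of the 2 states are separate in 21 names and overlap in miR-7667-5p, and miR-5099 spreads from 12734 to 180255 CPM within undifferentiated cells.

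miR-5099 showed the largest fall and the widest spread. It was at 3188, 3742 and 2112 CPM in differentiated A, B and C and at 12734, 180255 and 115735 CPM in undifferentiated A, B and C. Every undifferentiated library was above every differentiated one, but undifferentiated A lay nearer to the differentiated libraries than to B and C. The log2 fold change was -4.45 ± 0.74 (adjusted p = 1.53e-04), -5.62 without undifferentiated A and -3.71 without undifferentiated B. Within the kinds of library it was -1.88 for that of differentiated A and B and undifferentiated A and -6.09 for the other, so the direction was shared and the size was not. The share of human-named entries, 0.765% in undifferentiated A and 0.111 and 0.115% in B and C, moved with this spread, and its part in the result was not tested.

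miR-92a-3p, a member of the miR-17~92 cluster that promotes proliferation, fell from 2264, 4344 and 4269 CPM in undifferentiated to 266, 515 and 569 CPM in differentiated libraries. The means were 3626 ± 1180 and 450 ± 162 CPM (SD, n = 3) with no overlap, and the log2 fold change was -2.99 ± 0.41 (adjusted p = 2.39e-05). It was the only name tested among 12 of that cluster and its paralogs, 9 of which had a read, and it was lower under each scaling and test run, with -2.58 and -2.90 within the kinds of library. miR-151-3p, encoded in an intron of the focal adhesion kinase gene Ptk2, was at 266, 240 and 569 CPM against 1214, 973 and 1622 CPM (-1.87 ± 0.43, adjusted p = 0.00313), and at -2.22 and -1.13 within the kinds.

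Of the 9 tested let-7 names 3 were lower and none was higher, with a median of -0.35. Over all 66 tested names 8 (12.1%) were lower and 14 (21.2%) higher, with a median of 0.39. The 3 let-7 names were also lower with RLE or TMM factors, edgeR and DESeq2, and none of the 9 passed with library totals. let-7i-5p had 3, 6 and 9 reads in differentiated and 21, 59 and 20 in undifferentiated libraries (-1.72 ± 0.56, adjusted p = 0.0344). It had passed the filter only through the undifferentiated libraries. let-7d-5p was at 1328, 1614 and 2627 CPM against 4004, 4665 and 3245 CPM (-1.14 ± 0.38, adjusted p = 0.0355). let-7e-5p was at 465, 412 and 596 CPM against 656, 1318 and 1473 CPM (-1.14 ± 0.41, adjusted p = 0.0469). None of the 3 had overlapping states. Within the kinds of library let-7i-5p was at -2.18 and -1.13, let-7d-5p at -1.45 and -0.56 and let-7e-5p at -0.57 and -1.21.

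All 3 let-7 calls rested on single libraries. let-7i-5p missed the threshold without differentiated A or any 1 undifferentiated library (adjusted p = 0.0561 to 0.144), let-7d-5p without each library but differentiated C (adjusted p = 0.0583 to 0.106) and let-7e-5p without each but undifferentiated A (adjusted p = 0.0746 to 0.188). The most abundant member, let-7f-5p, was at 3420, 4326 and 4901 CPM against 3873, 5116 and 4461 CPM (-0.09 ± 0.37, adjusted p = 0.88). The seed GAGGUAG, in capitals above, is shared by 8 of the tested let-7 names, among them the 3 that fell and let-7f-5p.

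miR-3473b was at 598, 1030 and 650 CPM in differentiated and 1313, 1816 and 2412 CPM in undifferentiated libraries (-1.27 ± 0.39, adjusted p = 0.0244). It missed the threshold without differentiated A or C or undifferentiated B or C (adjusted p = 0.0628 to 0.110) and with library totals (adjusted p = 0.0676). Its 20 bases occur in full in 413 annotated transcripts of 343 genes other than miRNAs. miR-7667-5p, the call whose states overlapped, was at 133, 137 and 596 CPM against 459, 878 and 1259 CPM (-1.79 ± 0.59, adjusted p = 0.0344). Without differentiated C it was -2.48, and without any other 1 library it missed the threshold (adjusted p = 0.0508 to 0.144). It also missed it with library totals, edgeR and DESeq2 (adjusted p = 0.095, 0.0591 and 0.0561). The 2 sequences pair perfectly over 12 bases, the longest such stretch between them.

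miR-140-3p and miR-99b-3p were lower in every differentiated library but missed the threshold. miR-140-3p, a miRNA of cartilage, was at 365, 172 and 298 CPM against 624, 522 and 662 CPM (-1.14 ± 0.48, adjusted p = 0.0727). miR-99b-3p had 2, 3 and 8 reads against 16, 35 and 14 (-1.72 ± 0.77, adjusted p = 0.0891). With RLE factors the first passed, and with TMM factors or DESeq2 both did.

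The remaining lists are given beside the shares over all 66 tested names, 21.2% higher and 12.1% lower with a median of 0.39. Of 4 tested names on a list of proliferation miRNAs none passed the limma threshold (median -0.39), while 1 was lower with TMM factors and 2 with DESeq2. miR-21a-5p, abundant in many dividing cells, was at 5213, 6008 and 6066 CPM against 13390, 5721 and 10737 CPM (-0.70 ± 0.43, adjusted p = 0.213), with undifferentiated B among the differentiated values. Of the candidates the study named, 3 of 4 tested were higher (median 3.60), but these were chosen on these samples and hold miR-1a-3p and the miR-486 pair again. Of the 6 names best retained by the MRTF-A bait only miR-199a-5p was higher (median 0.89), and 1 other, miR-31-5p, was lower with DESeq2. Of the 4 human-named entries tested none passed, and hsa-miR-6509-3p was at 1.36 ± 0.87 (adjusted p = 0.241), with 0.45 and 0.03 within the kinds of library.

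Markers of blood, epithelial and liver cells were near or at 0, while some names that muscle or connective tissue cells also express were not. The 6 blood names in the table, among them miR-223-3p, miR-142-3p and miR-451a, had no read in any MS2 library. Of 6 epithelial names only miR-205-5p had any, with at most 2 in a library, and the liver marker miR-122-5p had 2 in undifferentiated C. Of 5 neural names miR-124-3p, miR-129-5p and miR-219a-5p had no read. The neural list summed to 7 to 16 reads in differentiated and 1 to 5 in undifferentiated libraries. Of its members, miR-9-5p had reads in every undifferentiated library and none in differentiated B or C. miR-128-3p, a neural miRNA that muscle also expresses, had 9, 7 and 16 reads in differentiated against 0, 2 and 0 in undifferentiated libraries, a ratio of 26.9 (95% exact counting interval 6.86 to 231). The endothelial and smooth muscle list summed to 3221 to 4387 CPM in differentiated and 1519 to 2232 CPM in undifferentiated libraries. Nearly all of it was miR-143-3p, described above, while the endothelial miR-126a-3p had 2 reads in undifferentiated C and the smooth muscle miR-145a-5p had 1, 0 and 2 in the differentiated libraries. The part of such cells in the results was not tested.

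Below the filter, 3 names had reads in all 3 differentiated and no undifferentiated libraries, and 6 the reverse. miR-1b-5p had 5, 7 and 8 reads in differentiated libraries and was at least 3.14-fold higher, with 3 reads per library as the floor. Its reads in the inputs were 87 in differentiated and 0 in undifferentiated cells. miR-7667-3p, from the same hairpin as miR-7667-5p, had 2, 30 and 18 reads in undifferentiated A, B and C and none in differentiated libraries, and was at least 2.84-fold lower there. The other 7 (miR-3074-5p, miR-133b-5p, miR-296-5p, miR-7015-5p, miR-5121, miR-1940 and miR-7a-5p) had no level above that floor.

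To ask whether the change in the control was that of the lysate it was exposed to, the state change was compared with that in the inputs. Of the 22 names 20 had the same sign in the input, as had 46 of the 66, and the exceptions were miR-199a-5p and miR-199a-3p. Across the 66 names the changes in control and input had Pearson's r = 0.84 and Spearman's rho = 0.77, a description over names that share libraries and scaling. miR-92a-3p changed by -3.17 in the input and -2.99 in the control. For miR-1a-3p, with no read in the undifferentiated inputs, the input value of 9.46 is set by the pseudocount.

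The difference of the 2 changes was tested over 276 names in a limma fit of 12 libraries. It passed in 31 (11.2%), 28 more positive in the control and 3 more negative, around a median of 0.68, and 14 of the 31 had fewer than 10 reads in the MS2 libraries. With library totals the split was 10 and 5 around a median of 0.13, and with DESeq2 9 and 14 around -0.23. Among the 66 names it passed in 6, all more positive in the control.

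miR-690 had the largest of these 6. It changed by 3.33 in the control and by 0.14 in the input, where it was at 56.5 ± 12.8 CPM in differentiated and 51.6 ± 18.1 CPM in undifferentiated cells (SD, n = 3). The difference was 3.20 ± 0.58 (adjusted p = 0.00461), and it missed the threshold with RLE factors (2.28, adjusted p = 0.0738) but under no other setting run. miR-199a-5p rose by 2.34 in the control and changed by -0.62 in the input, from 724 ± 286 to 449 ± 65.2 CPM. That difference was 2.96 ± 0.48 (adjusted p = 0.00248) and passed under each setting run.

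miR-484 (2.90 ± 0.63, adjusted p = 0.0133) and miR-149-5p (2.21 ± 0.50, adjusted p = 0.0136) also passed without each MS2 library in turn. miR-222-3p, which represses the cell cycle inhibitor p27, changed by -0.21 in the control and -2.70 in the input (difference 2.48 ± 0.66, adjusted p = 0.0307). It missed the threshold without differentiated B, undifferentiated A or undifferentiated B (adjusted p = 0.0683 to 0.0718). miR-31-5p, known to repress Myf5, changed by -0.57 and -2.31 (difference 1.75 ± 0.48, adjusted p = 0.0366), and missed it without differentiated B or C or undifferentiated B or C (adjusted p = 0.0625 to 0.0814). For miR-5099, which changed by -0.14 in the input against -4.45 in the control, the input values were 1940 ± 1794 CPM in differentiated and 1499 ± 494 CPM in undifferentiated cells, and its difference was -4.31 ± 1.36 (adjusted p = 0.061).

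**Figure D4:**
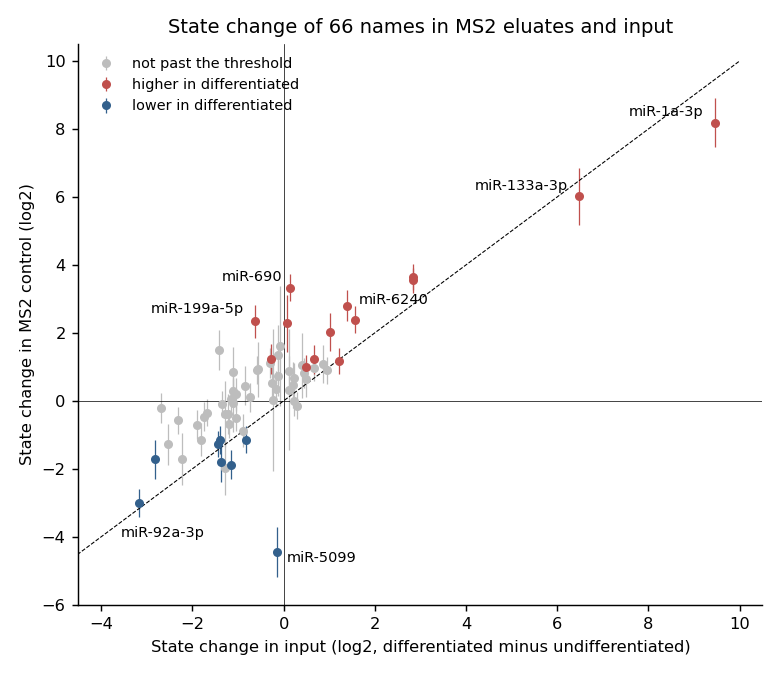
Log2 state change in the MS2 control (vertical, with its SE) against that in the input (horizontal) for the 66 names tested, with names that differed in the control in red (higher) or blue (lower) and a dashed line of equal change. miR-1a-3p and miR-133a-3p lie a little below the line, while miR-690 and miR-199a-5p lie above it and miR-5099 below it.

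The same was asked of the MRTF-A eluates, which share no library with the control or the inputs. Of the 22 names 19 changed with the same sign as with the bait, as had 48 of the 66, and let-7d-5p, let-7e-5p and miR-151-3p did not. The difference between control and bait passed in 22 of 169 names (13%), 8 more positive and 14 more negative in the control, and 12 of these had fewer than 10 MS2 reads. The count was 4 without differentiated MS2 library B and 5 without undifferentiated MS2 library C. edgeR called none of the 169, with 40 at an unadjusted p under 0.05 (50 with limma), DESeq2 called 29, and the split with RLE factors was 21 positive and 11 negative.

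Among the 66 names 2 were more positive and 5 more negative in the control. miR-1a-3p rose by 8.19 in the control and by 13.60 with the bait, where it reached 568026 ± 39253 CPM (SD, n = 3) in differentiated cells. The difference was -5.41 ± 0.99 (adjusted p = 0.00761), or -4.44 without undifferentiated MS2 library A. With a pseudocount of 1 it was -3.53 and missed the threshold (adjusted p = 0.296). miR-22-3p, a miRNA of heart and skeletal muscle, changed by 0.90 and 2.96 (difference -2.05 ± 0.43, adjusted p = 0.0139). miR-690 changed by 3.33 and 0.53 (difference 2.80 ± 0.65, adjusted p = 0.0224), and miR-31-5p by -0.57 and -2.92 (2.35 ± 0.58, adjusted p = 0.0235).

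The names that fell in the control but not with the bait completed the set. miR-151-3p changed by -1.87 in the control and 0.21 with the bait (difference -2.09 ± 0.49, adjusted p = 0.0224), let-7d-5p by -1.14 and 0.81 (-1.95 ± 0.46, adjusted p = 0.0224) and let-7e-5p by -1.14 and 0.57 (-1.72 ± 0.50, adjusted p = 0.0439). Of the 7, all but miR-1a-3p missed the threshold without differentiated MS2 library B and again without undifferentiated C (adjusted p = 0.0518 to 0.0962). let-7e-5p did so also without differentiated A (adjusted p = 0.0774) and undifferentiated B (adjusted p = 0.0796). The tests against input and against bait share the 6 MS2 libraries, so a name that passed in both, as miR-690 and miR-31-5p did, is not seen independently.

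**Figure D5:**
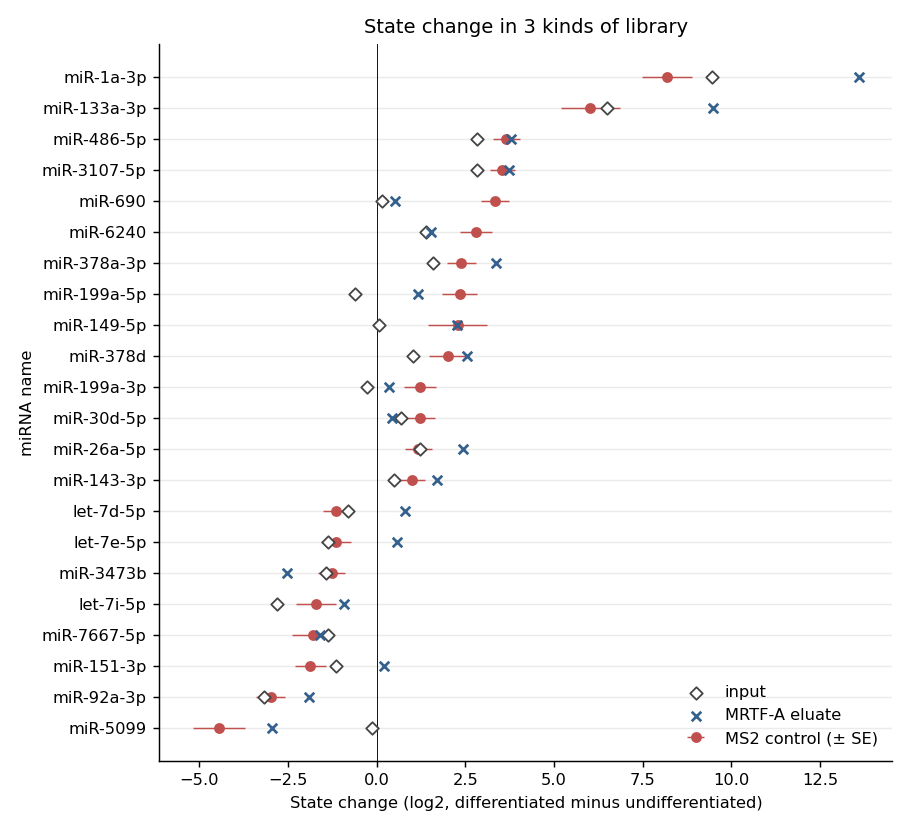
Log2 state change of the 22 names that differed in the MS2 control, in the control (red circles with SE), in the input (diamonds) and in the MRTF-A eluates (crosses). The muscle miRNAs at the top changed in the same direction in all 3, miR-690 is near 0 in input and bait, and let-7d-5p, let-7e-5p and miR-151-3p lie below 0 in the control and above 0 with the bait.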

How the data were processed

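Small RNA of 18 libraries (6 groups of 3) was used. Per the submitters' processing notes, tools were edgeR 3.18.1, featureCounts 1.4.6, cutadapt 1.4.2 and Bowtie2 2.0.13. How they were set, and how reads matching several names were handled, is not given in the sources used here. Each deposited signal is a CPM normalised by the authors, and each value was a whole multiple of what 1 read is worth (100% within 0.01 read), so reads were recovered. The deposited log2 fold changes and p-values of the authors' own comparisons, per the file headers, were not used.

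Names were kept by edgeR's filterByExpr (minimum count 10, minimum total 15). limma 3.58.1 (R 4.3.3) with a trend on log2(CPM + 10) was the main test, with 3 comparisons; DESeq2 1.42.0 and edgeR 4.0.16, run on the recovered reads, served as alternatives, beside other scalings, pseudocounts, filters, a replicate block and libraries left out. The fits were also run on simulated counts. These had the same spread setting for every name and no kinds of library, so they do not cover replicates as unlike as the MS2 libraries. Named were the 10 largest rises and falls that passed, without overlap and with at least 100 CPM; names at an unadjusted p under 0.05 to fill a direction; the 10 most abundant; the myomiRs; the 5 largest differences per direction; and examples of each list. miR-7667-5p, the remaining names among the 66 that passed a test of differences and the names seen in 1 state only were added after their values were seen. Members and lists were chosen with earlier results of these data known. Mature sequences come from RefSeq (GRCm38.p6). Tables and figures used Python 3.11.15, matplotlib 3.10.9, scipy 1.17.1, pandas 2.3.3 and numpy 2.4.6. Depth was 15562 to 39695 reads per MS2 library, so 3 reads, the floor for a count of 0, are a large part of a low value.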

Additional observations from a re-analysis of the deposited data

Results flagged for a closer look

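The results below are those in which a test found the state change in the MS2 control to differ from that in another kind of library. Against the input, the difference of log2 state changes was 3.20 for miR-690 and 2.96 for miR-199a-5p, both described above. For 4 names too low to be tested within the control it was 4.30 for miR-3103-3p, 3.38 for miR-346-3p, 3.13 for miR-6909-5p and -3.22 for miR-7667-3p (limma, adjusted p = 0.0183, 0.0253, 0.0136 and 0.0366). Their MS2 reads in differentiated and undifferentiated libraries A, B and C were 4, 19 and 11 against 0, 0 and 3 for miR-3103-3p, 9, 3 and 13 against 0, 3 and 0 for miR-346-3p, and 7, 5 and 7 against 0, 2 and 1 for miR-6909-5p. miR-3103-3p was 5.26 without undifferentiated C, and it missed the threshold with library totals (adjusted p = 0.0567), without the filter (adjusted p = 0.0739) and with edgeR (adjusted p = 0.0731). miR-346-3p missed the threshold without differentiated A or C or undifferentiated A or C (adjusted p = 0.0511 to 0.0621) and was 4.11 without undifferentiated B. miR-7667-3p missed it without any 1 library but undifferentiated A (adjusted p = 0.0573 to 0.0727), without which it was -4.00. Without the filter and with edgeR miR-7667-3p missed the threshold too. miR-346-3p and miR-6909-5p also missed it with library totals, RLE or TMM factors, edgeR and DESeq2, with a pseudocount of 1 and without the filter.

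Against the MRTF-A eluates, the difference was 2.80 for miR-690, 2.35 for miR-31-5p, -5.41 for miR-1a-3p, -2.09 for miR-151-3p and -2.05 for miR-22-3p, all described above. It was also -4.52 for miR-1b-5p, with 20 differentiated MS2 reads and none in undifferentiated libraries of either kind. Both of its state changes are thus set by the pseudocount, and its difference ranged from -5.03 to -3.09 over the settings run, so it reflects the differentiated levels only, 208 CPM in the control and 4947 CPM with the bait. The difference was -3.20 for miR-320-3p, with 1, 2 and 3 reads against 5, 12 and 16. miR-320-3p missed the threshold without differentiated B (adjusted p = 0.0543) or undifferentiated C (adjusted p = 0.0549), with a pseudocount of 1 and without the filter. edgeR called none of the 169 differences from the bait, with 40 at an unadjusted p under 0.05.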

How the results depend on the processing

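The count of 22 names that differed in the control was 18 to 27 with either pseudocount, without the filter, with RLE or TMM factors, edgeR, DESeq2, a filter of 20 reads, library totals without the 3 leading names, or the kind of library as a term. It was 11 with library totals and 42 when the 12 eluates were fitted together, where 169 names were tested, and 11 to 27 when 1 MS2 library was left out. Scaling moved the split of calls: 9 higher and 9 lower with RLE factors, 9 and 11 with TMM, 13 and 14 with DESeq2, 8 and 3 with library totals, 16 and 4 without the filter and 8 and 19 with library totals without the 3 leading names, where the median of the 66 names was -0.36. The names called were not always those of the main fit. Among the 22, with the same sign, were all 22 calls with either pseudocount, 20 of 21 with edgeR and 17 of 18 with RLE factors. With TMM factors they were 17 of 20 and with DESeq2 19 of 27. They were 16 of 27 with library totals without the 3 leading names, and 10 of 20 without the filter, where 717 names were tested. No value of a named miRNA that had passed changed sign. The 31 differences from the input were 50 with a pseudocount of 50, 17 without the filter, 15 with library totals, 18 with RLE and 18 with TMM factors, 14 with edgeR, and 38 to 47 with 1 MS2 library left out. The 22 differences from the MRTF-A eluates were 11 with a pseudocount of 1, 38 with one of 50, 2 without the filter, 14 with library totals, 0 with edgeR (40 at an unadjusted p under 0.05), 14 with array weights by kind of library, and 4 to 28 with 1 MS2 library left out. Fewer libraries also change which names pass the filter; beyond that the cause was not tested. Same-suffix libraries did not pair consistently (correlation of deviations 0.51, -0.32 and 0.43 for A, B and C). Libraries of unlike suffix ranged from -0.61 to 0.54. With the suffix as a replicate block 27 names differed in the control, 31 from the input and 18 from the bait. Depth limits the low names: 1 read was up to 34.3 CPM.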
